A study of Mus musculus with 6 samples.

Results

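CTCF sites that ranked higher in both BRD2-null erythroblast clones than in wild-type cells were collected from the 3 deposited lists of CTCF peaks. Peaks of different lists that overlapped by at least 1 bp were joined into regions, and 23933 of the 48367 regions held a peak in every list. In each list the largest fold enrichment of a region was turned into a percentile rank, from 0 for the weakest to 1 for the strongest of these shared regions. The regions were chosen by these ranks, so by the deposited enrichments: a region was taken when its rank in clone D and its rank in clone C8 were each at least 0.15 above its rank in wild type. The rule found 3039 regions, 12.7% of the shared regions. Since the ranks chose the regions, the differences in rank, enrichment or −log10 p between clones and wild type are given as descriptions and carry no test.

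CTCF recognises a long DNA motif with its zinc fingers and halts cohesin as it extrudes chromatin loops. Its sites mark many insulators and domain boundaries. BRD2 is a BET protein whose bromodomains bind acetylated histones, and BET proteins are known as cofactors of GATA1, a master regulator of erythroid genes. No genome of the build of the lists, mm9, was used here, so the regions are given by position, without sequences or gene names.

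The ChIP-seq libraries came from clone D, from clone C8 and from wild-type cells, with 1 library each and the same anti-CTCF antibody. All 3 lines are G1E-ER4, mouse erythroblasts that have no endogenous GATA1 and carry GATA1 as a fusion with the estrogen receptor, and "wild type" refers to BRD2. Every line received 100 nM estradiol for 24 hours, which activates the fusion protein and starts differentiation. Clones D and C8 (D_Brd2KO and C8_Brd2KO) are independent clonal sub-lines made with CRISPR/Cas9 in which BRD2 was not detectable, so a property of a clone and the loss of BRD2 cannot be told apart within either. The question was whether CTCF occupancy differs without BRD2. The lists held 29769 peaks in clone D, 32308 in clone C8 and 40271 in wild type. Read totals are not given in the lists and the depth of each library is unknown here. With 3 libraries, no permutation of the labels can give a p below 0.333.

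How often 1 list fell below the other 2, whatever its genotype, was read from the same rule with a clone in the place of wild type. Clone C8 and wild type both ranked at least 0.15 above clone D in 2637 regions (11.0%). Clone D and wild type both ranked that far above clone C8 in 2375 regions (9.92%). The count of 3039 for wild type was thus the highest of the 3, and 1.15 times the count for clone D. Turned round, the rule found 2891 regions (12.1%) that ranked lower in both clones than in wild type. Ranks taken within the same shared regions centre every list, so the nearness of the 2 counts follows in part from the scaling. The corresponding counts were 2391 (9.99%) for regions lower in both other lists than in clone D and 2137 (8.93%) for clone C8. Across the 23933 shared regions, Spearman's rho of the ranks was 0.753 between the clones, 0.692 between clone D and wild type and 0.714 between clone C8 and wild type. Wild type was therefore the list that stood apart most by each of these measures, but the clones also differed from each other by the same rule. Ranked among all peaks of each list, shared or not, the order of the counts turned: 983 regions had wild type as the low list, 4155 had clone D and 2523 had clone C8. On that scale 4527 shared regions ranked lower in both clones than in wild type.

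Large shifts were few. The smaller of a region's 2 gains (rank in the clone minus rank in wild type) had a median of 0.238 among the 3039 regions, with quartiles of 0.188 and 0.311. A gain of at least 0.3 in both clones was found in 850 regions, of at least 0.5 in 103 and of at least 0.6 in 18. The same thresholds gave 714, 72 and 12 regions with clone D as the low list, and 556, 51 and 6 with clone C8 as the low list. At each threshold wild type had the most regions and clone C8 the fewest.

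The regions were of middling to high strength in the clones and weak to middling in wild type. Their median rank was 0.664 in clone D, 0.645 in clone C8 and 0.299 in wild type. Clone D had a lower quartile of 0.486 and clone C8 of 0.462, while wild type had an upper quartile of 0.478. Within its own list, the median fold enrichment of the regions was 26.3 in clone D, 33.6 in clone C8 and 26.6 in wild type. For all shared regions these medians were 20.6 in clone D, 27.1 in clone C8 and 37.0 in wild type. The enrichments are the authors' and their scale differs between lists, so only the position within a list was compared.

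**Figure D1:**
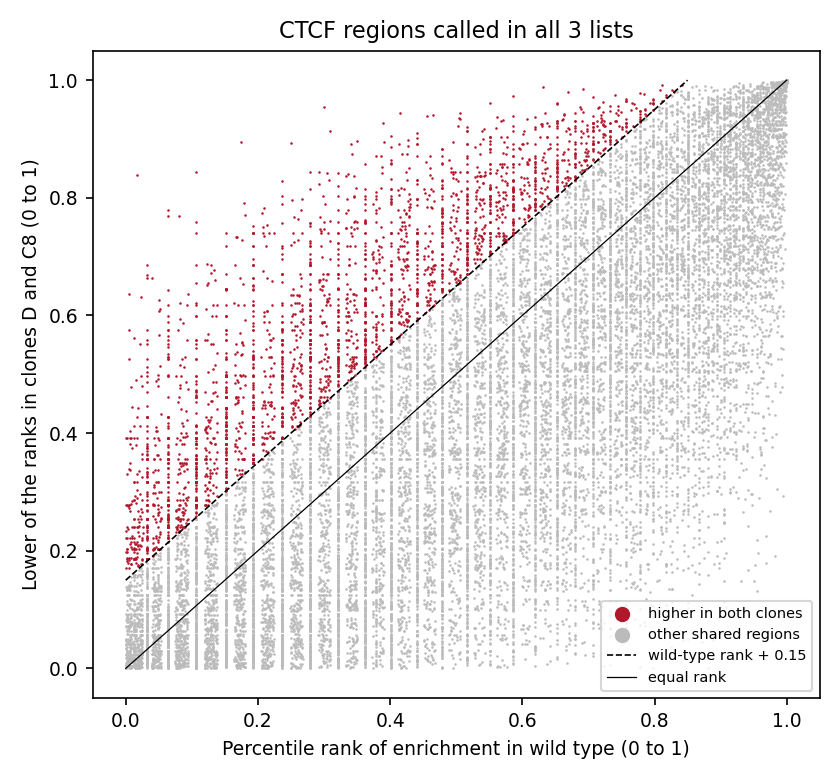
Each point is 1 of the 23933 shared regions, with its percentile rank of enrichment in wild type on the horizontal axis and the lower of its ranks in clones D and C8 on the vertical axis. The 3039 regions higher in both clones lie above the dashed line, and the vertical stripes are tied enrichments in the wild-type list, where up to 610 regions share 1 value.

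The 10 regions with the largest gain in both clones spanned 9 chromosomes. The first lay on chromosome 9 (64627172 to 64627819), with ranks of 0.839 in clone D, 0.870 in clone C8 and 0.0173 in wild type. Its fold enrichment was 35.4 in clone D, 49.1 in clone C8 and 12.6 in wild type, and its −log10 p was 43.5, 45.2 and 5.98 in the same order. In wild type this site was thus close to the lowest −log10 p that any list holds, which is 5, while in both clones it stood among the strong sites.

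The second region, on chromosome X (130867738 to 130868312), ranked 0.898 in clone D, 0.844 in clone C8 and 0.107 in wild type. The third, on chromosome 5 (145819504 to 145820096), ranked 0.894, 0.921 and 0.175 in clone D, clone C8 and wild type. Next came regions on chromosome 7 (30466741 to 30467386) and on chromosome 8 (90881760 to 90882473). Clone D gave them ranks of 0.901 and 0.906, clone C8 gave 0.779 and 0.769, and wild type gave both 0.0641. By enrichment, these sites were among the weaker shared sites of the wild-type list and strong sites in both clones. By −log10 p the chromosome 5 site stood near the middle of the wild-type list, with a value of 23.4 and a rank of 0.509.

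The region on chromosome 15 (5056126 to 5056777) had the highest rank of enrichment of the 10 in each list. It ranked 0.971 in clone D, 0.954 in clone C8 and 0.299 in wild type. Its −log10 p was 83.7 in clone D, 64.8 in clone C8 and 23.1 in wild type, so the wild-type peak was itself well above the limit of calling. The rest of the 10, one on chromosome 1 (84466837 to 84467361), one on chromosome 4 (61764347 to 61764912) and a pair on chromosome 18 (70353211 to 70353835 and 46493540 to 46494259), had gains in the lower-ranked clone of 0.689, 0.653, 0.652 and 0.644. All 10 also passed the limit of 0.15 in both clones when −log10 p was ranked in place of enrichment. Both values come from the same peaks, so this is a second description of these libraries.

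**Figure D2:**
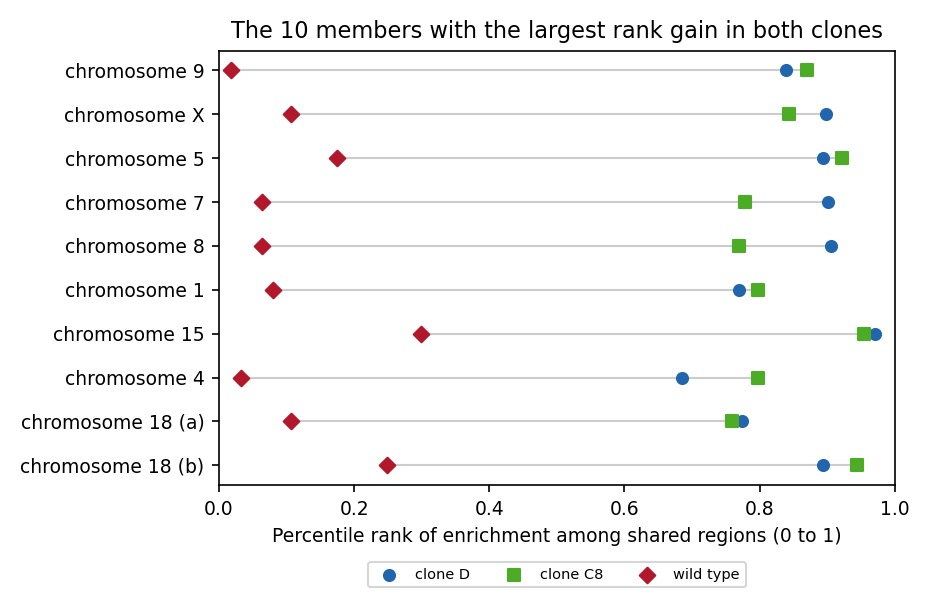
Percentile rank of enrichment (0 to 1) in clone D, clone C8 and wild type for the 10 regions with the largest smaller gain, from the largest at the top. On chromosome 9 the ranks are 0.839 and 0.870 in the clones against 0.0173 in wild type. The regions were chosen by this gain, so the distance between the symbols of the clones and that of wild type follows from the choice.

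At the other end, the 5 regions with the highest wild-type rank were strong everywhere. The first lay on chromosome 8 (13753664 to 13754262), followed by one on chromosome 13 (107891550 to 107892224) and one on chromosome 14 (63685297 to 63686051). The last were one on chromosome 11 (40414921 to 40415526) and another on chromosome 4 (114669457 to 114670149). Their ranks ran from 0.975 to 0.992 in clone D, from 0.971 to 0.991 in clone C8 and from 0.817 to 0.841 in wild type. By −log10 p only 1 of the 5, that on chromosome 4, passed the limit in both clones.

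Just inside the limit, a region on chromosome 16 (37947278 to 37947774) ranked 0.191 in clone D, 0.604 in clone C8 and 0.0415 in wild type, so its clones differed from each other by more than clone D differed from wild type. The other 2 regions just inside, on chromosome 16 (55950927 to 55951698) and chromosome 3 (142611578 to 142612336), both ranked 0.948 in clone C8 and 0.798 in wild type. Just outside lay one region on chromosome 10 (104810241 to 104810819), one on chromosome 6 (125221582 to 125222201) and one on chromosome 15 (21814763 to 21815385). In that order, clone D gave them ranks of 0.590, 0.485 and 0.948, clone C8 gave 0.718, 0.702 and 0.882, and wild type gave 0.441, 0.335 and 0.732.

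Weak wild-type sites were taken more often than strong ones. In the weakest of 10 rank classes of wild type, 23.4% of shared regions ranked higher in both clones, against 15.2% in class 5 and 4.75% in class 8. The rule itself sets this course in part, since no region with a wild-type rank above 0.85 can gain 0.15. With clone D as the low list the shares were 19.8%, 13.0% and 4.00% in classes 1, 5 and 8, and with clone C8 as the low list 17.5%, 13.6% and 3.18%. All 3 lists followed the same course.

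**Figure D3:**
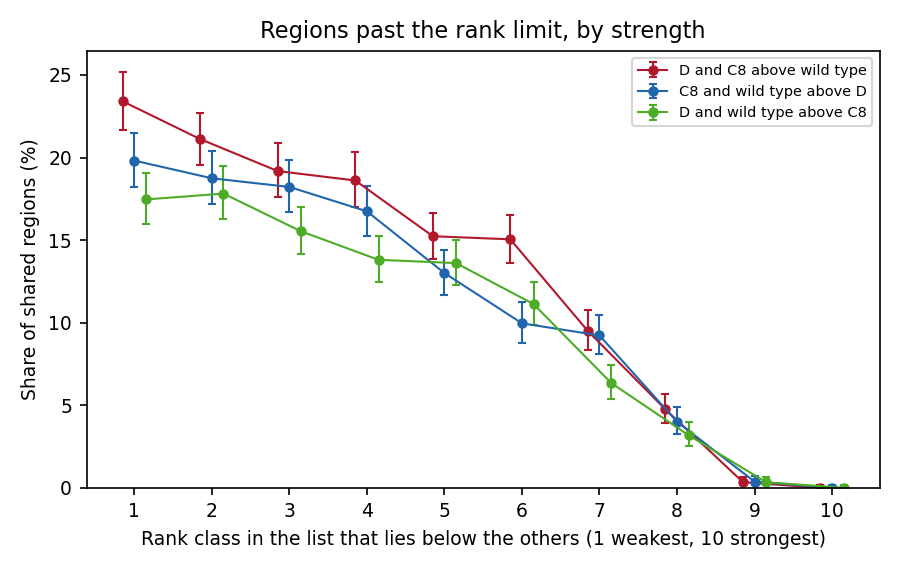
Share of shared regions in which both other lists ranked at least 0.15 above the named list, by rank class of that list (1 weakest, 10 strongest). Points are shares and bars are exact 95% binomial intervals, which cover counting error only. The share for wild type falls from 23.4% in class 1 to 4.75% in class 8, and the clones' shares fall in the same way.

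The other columns of the lists gave a less uniform account of the same regions. They come from the same peaks as the enrichments that chose the regions, so differences in them follow in part from the choice and were not tested. Of the 3039 regions, 1822 (60.0%, exact 95% interval 58.2 to 61.7) passed the limit in both clones by −log10 p as well. Among all shared regions 10.4% passed it by −log10 p. The rule with a clone as the low list was likewise met by both columns in 1474 of 2637 regions for clone D and 1173 of 2375 for clone C8. Ranked by −log10 p, the median rank of the 3039 regions was 0.616 in clone D, 0.596 in clone C8 and 0.333 in wild type. In wild type, 28.3% of the regions (26.7 to 29.9) had a false discovery rate above 0.05, against 17.9% of all shared regions (17.4 to 18.4). With clone D as the low list, 2.24% had such a rate in clone D, against 1.63% of all shared regions. With clone C8 as the low list, 5.31% had it in clone C8, against 3.71%. The 3039 regions had a median width of 533 bp in clone D, 454 bp in clone C8 and 441 bp in wild type. For all shared regions it was 515, 444 and 451 bp in the same order. The peak was wider in both clones than in wild type in 49.4% of the regions (47.6 to 51.2). For all shared regions that share was 42.0% (41.3 to 42.6), with clone D as the low list 38.8% and with clone C8 36.6%. Nearly all regions were simple: 3016 of the 3039 (99.2%) held exactly 1 peak in each list, against 98.8% of all shared regions.

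By position, which the rule did not use, the regions lay more often in parts of the genome with few CTCF sites. The median number of other shared regions within 500 kb was 14 for the 3039 regions (quartiles 8 and 23), against 18 for all shared regions (10 and 28). In the sparsest of 5 density classes, with 0 to 9 other shared regions in that distance, 983 of 5499 regions ranked higher in both clones (17.9%, exact 95% interval 16.9 to 18.9). In the densest class, with 31 to 66, the number was 402 of 4656 (8.63%, 7.84 to 9.48). The classes between them had shares of 13.8%, 12.7% and 9.75%, so the share fell at every step.

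Regions that ranked lower in both clones ran the opposite way, with 8.53% in the sparsest and 15.0% in the densest class. The median rank of all shared regions in the sparsest class was 0.512 in clone D, 0.496 in clone C8 and 0.441 in wild type. In the densest class it was 0.492 in clone D, 0.522 in clone C8 and 0.552 in wild type. Taken alone, clone D ranked at least 0.15 above wild type in 30.4% of regions in the sparsest and 16.8% in the densest class, and clone C8 in 29.2% and 19.5%. Sites in sparse parts of the genome were thus ranked lower in the wild-type list, and sites in dense parts higher.

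Density also divided the clones. Clone C8 and wild type both ranked above clone D in 8.57% of regions in the sparsest class and in 14.9% in the densest, a course opposite to that for wild type. With clone C8 as the low list the share was 8.18% in the sparsest class and between 10.1% and 10.9% in the other classes. The median difference in rank, clone D minus clone C8, was 0.00253 in the sparsest class and -0.0159 in the densest. At dense sites the lists therefore ran from clone D, lowest, through clone C8 to wild type, while at the sparsest sites the clones were close and wild type was lowest. With 1 library a line, the line and its library cannot be told apart in this course.

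The course with density was found at each level of strength. Among shared regions with a wild-type rank below 1/3, 25.3% of those in the sparsest class ranked higher in both clones, against 15.8% of those in the densest. For wild-type ranks between 1/3 and 2/3 the shares were 20.8% and 10.8%, and above that 4.37% and 1.49%. Taking only regions that passed the limit by enrichment and by −log10 p, the shares were 11.7% in the sparsest and 5.03% in the densest class. Distance to the single nearest region of any kind differed less: 52.5% of the 3039 regions (50.7 to 54.3) had another region within 10 kb, against 57.4% of all shared regions (56.8 to 58.0). The median gap was 9014 bp for the regions and 7691 bp for all shared regions.

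**Figure D4:**
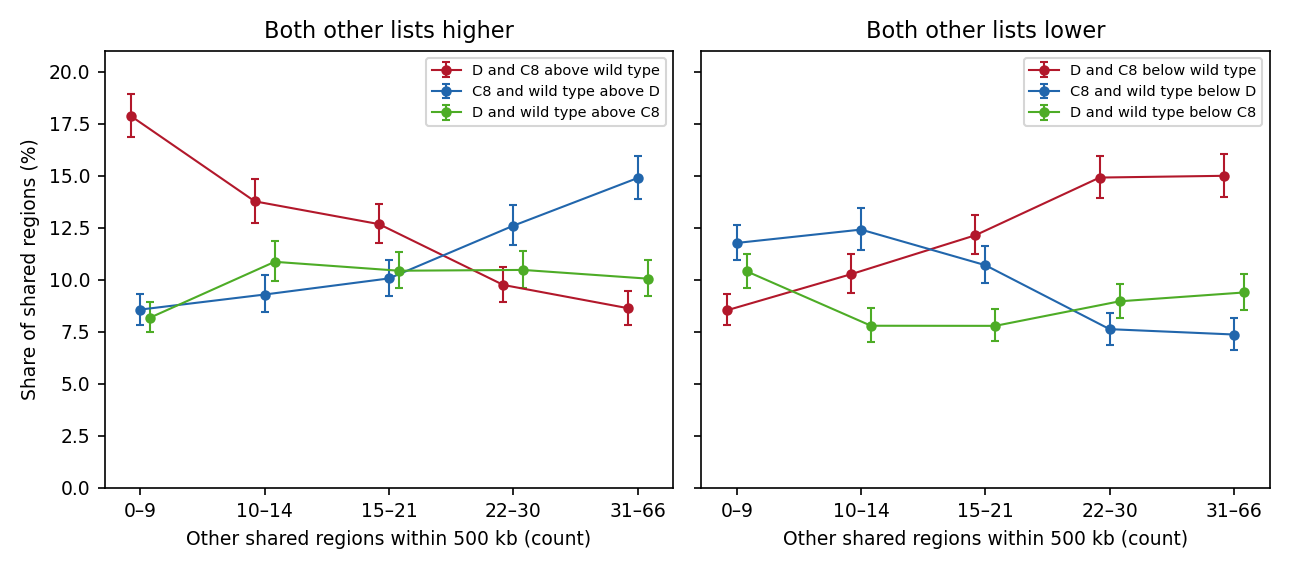
Share of shared regions past the rank limit of 0.15, by the number of other shared regions within 500 kb, for both other lists higher (left) and both other lists lower (right) than the named list. Points are shares and bars exact 95% binomial intervals for counting error. On the left, the share for wild type falls from 17.9% to 8.63% while that for clone D climbs from 8.57% to 14.9%; on the right both courses are turned round.

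By chromosome, the share of shared regions that ranked higher in both clones was highest on chromosome X and next on chromosome 8. On chromosome X it was 130 of 617 regions (21.1%, 17.9 to 24.5), and on chromosome 8 it was 203 of 1176 (17.3%, 15.1 to 19.6). The other 18 autosomes ran from 8.26% on chromosome 12 to 15.7% on chromosome 18. With clone D as the low list, chromosome X had the lowest share of all chromosomes, 6.0%, and with clone C8 as the low list it had 8.91%. On chromosome 8 those shares were 12.1% and 8.59%, neither the highest nor the lowest of the chromosomes. Ranked by −log10 p in place of enrichment, the share on chromosome X dropped to 13.9% and that on chromosome 8 was 17.5%, against 10.4% of all shared regions.

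Sites on chromosome X ranked below the middle in all 3 lists and lowest in wild type: the median rank of its shared regions was 0.471 in clone D, 0.462 in clone C8 and 0.362 in wild type. Clone D had a median difference in rank from wild type of 0.0667 there, and clone C8 one of 0.0503, the largest of any chromosome in each clone. Chromosome X is also sparse, with a median of 8 other shared regions within 500 kb. Within the sparsest class its share was 20.5% (72 of 352 regions, 16.4 to 25.05), against 17.0% (15.9 to 18.05) on chromosomes other than 8 and X, so these intervals overlapped. In the next class, with 10 to 14 other shared regions, 22.2% of chromosome X regions ranked higher in both clones (32 of 144, 15.7 to 29.9), against 13.4% on those other chromosomes (12.4 to 14.55). With 15 to 21 it was 23.7% (22 of 93, 15.5 to 33.6), against 12.4% (11.4 to 13.4). Over these classes the share on chromosome X did not fall with density, though its intervals were wide. With 22 to 30, chromosome X had 28 regions, of which 4 ranked higher in both clones (14.3%, 4.03 to 32.7), against 9.50%. The intervals cover counting error only.

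On chromosome 8 the regions were concentrated where sites are sparse. In the sparsest class 85 of 279 regions of chromosome 8 ranked higher in both clones (30.5%, 25.1 to 36.2), against 17.0% on chromosomes other than 8 and X. In the other 4 classes, from sparser to denser, its share was 14.05%, 13.9%, 13.8% and 10.8%. On chromosomes other than 8 and X the shares in those classes were 13.4%, 12.4%, 9.50% and 8.53%. Along the chromosome, 55 of the 182 shared regions between positions 30000001 and 70000000 were higher in both clones, or 30.2%. Between 60000001 and 70000000 it was 20 of 50 regions (40.0%), and there the median difference in rank from wild type was 0.108 for clone D, against 0.169 for clone C8. From 120000001 to 130000000, where sites are dense, 14 of 179 regions were higher in both clones (7.82%). The segments were chosen after their values were seen.

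**Figure D5:**
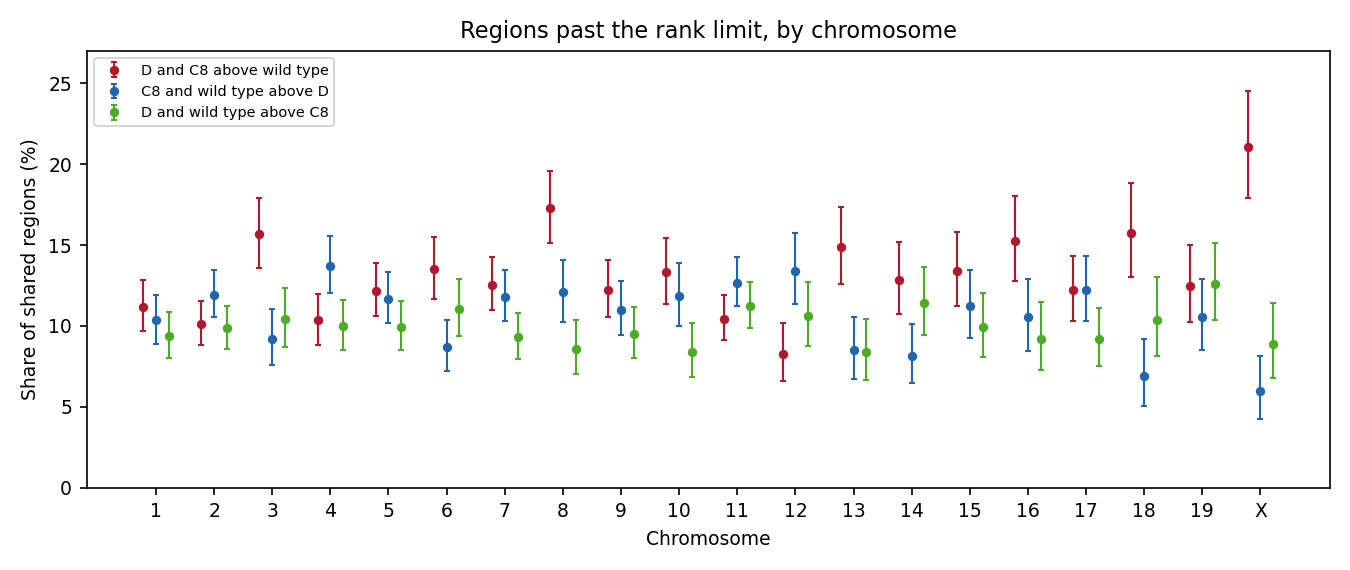
Share of the shared regions of each chromosome in which both other lists ranked at least 0.15 above wild type, clone D or clone C8. Points are shares and bars exact 95% binomial intervals for counting error. For wild type, chromosome X (21.1%) and chromosome 8 (17.3%) are highest and chromosome 12 (8.26%) is lowest, while for clone D chromosome X is the lowest (6.0%).

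The regions were found in most parts of the genome, at shares that differed between chromosomes and segments as given above. They fell in 974 of the 1222 windows of 2 Mb that held a shared region. With 12.7% of all shared regions chosen, many windows would hold such a region under any even spread, so this count does not measure scatter. The window with the most was on chromosome 8 (108000001 to 110000000), with 15 of its 69 shared regions (21.7%), while the rule found 6 regions there with clone D as the low list and 6 with clone C8. Among the 458 windows with at least 20 shared regions, the highest share was on chromosome X (34000001 to 36000000), where 13 of 33 ranked higher in both clones (39.4%). In that window the rule found 3 regions with clone D and 1 with clone C8 as the low list, and the median rank was 0.575 in clone D, 0.588 in clone C8 and 0.441 in wild type. The highest windows are extremes of many, so some would stand out in any such list.

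Most of the regions had no adjacent shared region that also met the rule, as most shared regions did not meet it. Of the runs of consecutive shared regions that all ranked higher in both clones, 2223 had a single region, 307 had 2, 55 had 3 and 8 had 4. The longest, of 5 regions, covered 130 kb on chromosome X (133549776 to 133679728). For a region higher in both clones, the adjacent shared region was also one in 14.6% of cases when it lay within 5 kb. The share was 13.1% for gaps of 5 to 20 kb and 12.4% for gaps of 20 to 100 kb. Of the 3693 adjacent pairs within 5 kb, 764 included such a region, and in 60 each of the pair was one. For gaps of 100 kb or more the share was 19.2%. Of the 4980 pairs that far apart, 1468 included such a region, and in 156 each of the pair was one. With clone D as the low list the share for neighbours was 17.4% within 5 kb and 10.8% at 100 kb or more. With clone C8 it lay between 10.8% and 11.0% throughout. The share of all regions in each class of gap that met the rule was not computed, so these shares have no matched base.

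Sites called in part of the lists lay near the regions as follows. A site that both clones had and wild type lacked lay within 25 kb of 8.98% of the 3039 regions (7.99 to 10.1), against 8.59% of all shared regions (8.24 to 8.96). A site called in wild type only lay within 25 kb of 22.8% of the regions (21.4 to 24.4), against 25.97% of all shared regions (25.4 to 26.5). The intervals cover counting error only, and the 3039 regions are themselves part of all shared regions, so neither pair was tested. The regions also lay where shared sites are sparser (median 14 against 18 others within 500 kb), which these shares do not take into account. Among regions that ranked lower in both clones, 28.5% (26.9 to 30.2) had a site called in wild type only within that distance. With clone D as the low list the share was 27.8% (26.1 to 29.5), and with clone C8 25.5% (23.7 to 27.3).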

How the data were processed

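Peak lists of 3 CTCF ChIP-seq libraries were analysed, and the 3 inputs were left out. The submitters' processing notes name build mm9, Bowtie 1.0.0 and bcl2fastq 1.8.4; a peak caller was not given in the sources used here. Each library has its own list, deposited by the authors with a fold enrichment (a ratio), a −log10 p and a false discovery rate (q-value field) for each peak. The last field is read as a false discovery rate from its place and its range, and the denominator of the enrichment is unknown here. Positions are counted from 1.

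Regions are connected sets of peaks overlapping by at least 1 bp, and tied enrichments shared their mean rank. Shares carry exact (Clopper-Pearson) 95% intervals that cover counting error only. The depth is unknown. Density is the number of other shared regions within 500 kb between midpoints, in 5 classes. No test was run, since wild type has 1 library and the ranks chose the regions. The members and lists were chosen with earlier results of these data known. The regions named are the 10 with the largest smaller gain, the 5 with the highest wild-type rank, 3 on either side of the limit and the 2 Mb window with most; other windows, and the density classes, were chosen after values were seen. Sequence motifs and nearby genes were planned but not analysed here, for want of an mm9 genome. Other settings for overlap, ranked value, limit, list length and clones are given in the closing section.

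On lists simulated with 23933 shared regions, 200 of 200 planted changes were found and 0 others. That run checked the code only and gives no rate of false calls for the real lists. In the real lists the same rule found 11.0% of shared regions with clone D as the low list and 9.92% with clone C8. bedtools 2.31.1 gave the same overlap in 6 of 6 pairs of real lists. Python 3.11.15, pandas 2.3.3, numpy 2.4.6, SciPy 1.17.1 and matplotlib 3.10.9 were used.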

Additional observations from a re-analysis of the deposited data

How the results depend on the processing

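Of 133 values under other settings, 77 stayed close to the main value (counts within 1.5 times, other values within the 95% interval of the main value) and 56 moved. The share of regions higher in both clones was larger in the sparsest than in the densest class under all 14 settings that gave both. Wild type as the low list gave the most regions in 9 of 10 settings, the exception being ranks among all peaks of each list. Ranking −log10 p moved the shares to 14.6% in the sparsest class, 7.28% in the densest and 13.9% on chromosome X, so that on chromosome X the share was then below that of chromosome 8. A limit of 0.10 gave a median wild-type rank of 0.321 and shares of 24.3% (sparsest), 12.7% (densest), 28.8% (X) and 23.0% (chromosome 8). A limit of 0.20 gave 12.8%, 5.46%, 14.7% and 12.8% in the same order, and 1544 regions with clone C8 low. Ranks among all peaks gave 983 regions higher in both clones, 4527 lower in both and 4155 with clone D low. Their median wild-type rank was 0.437, their median width 424 bp and the 4 shares 6.55%, 2.36%, 6.32% and 6.29%; such ranks also depend on how many unshared weak peaks a list holds. Peaks limited to a false discovery rate of 0.05 gave a median wild-type rank of 0.260, a width of 466 bp, 47.2% within 10 kb of another region and shares of 20.3% (sparsest) and 10.2% (densest). Lists of equal length gave 49.4% within 10 kb and a width of 449 bp. These 2 settings leave fewer regions by construction. Requiring the limit by enrichment and by −log10 p gave 1822 regions higher and 1728 lower in both clones, 1474 with clone D low, 1173 with clone C8 low, a width of 435 bp and shares of 11.7% (sparsest), 5.03% (densest), 11.7% (X) and 11.9% (chromosome 8). A reciprocal overlap of 50%, 1 peak per list, autosomes only and density within 250 kb or 1 Mb moved no value. The last pair and the joint limit were chosen after the values were seen. The cause of these moves was not tested.

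Leaving out 1 clone asks for a gain in 1 list in place of 2, which by construction gives more regions: 5480 to 5614 higher and 5418 to 5664 lower than wild type. The range of the other values was 0.308 to 0.321 for the median wild-type rank, 435 bp for the width, 53.1% to 54.7% within 10 kb, 29.2% to 30.4% in the sparsest and 16.8% to 19.5% in the densest class, 32.4% to 36.0% on chromosome X and 25.9% to 28.8% on chromosome 8. With a clone as the low list and the other clone left out, the comparison is the same as lower than wild type, so the counts are the same. Against clone C8 alone, wild type was lower in 5480 regions and higher in 5418. Against clone D alone, wild type was lower in 5614 regions and higher in 5664. No paired analysis was possible because wild type has 1 library and the sample titles name no pairs. The depth is unknown, and its effect on the ranks was not tested.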
